A study of Mus musculus with 6 samples.

Results

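Brown and beige thermogenic genes are the genes that mark fat cells able to burn fuel for heat. Here they are 9 genes found by their symbol among the 55573 genes listed for inguinal fat, *Ucp1*, *Cidea*, *Ppargc1a*, *Prdm16*, *Cox7a1*, *Cox8b*, *Elovl3*, *Otop1* and *Ebf2*, and each symbol had 1 row. RNA-seq compared Wt mice with THRA K283Q/K288R mutant mice, which carry a global knock-in of this pair of changes in thyroid hormone receptor alpha at sites where the receptor is joined to SUMO. The 3 Wt and the 3 mutant mice were C57BL/6NTac males aged 3 months, fed regular chow and given no treatment, and each gave a single library. The mutant line is homozygous, and the Wt controls were bred in house on the same background. The receptor was changed in all tissues, so a difference in fat need not arise within fat cells. The whole inguinal pad was sequenced, and fewer cells of a type cannot be told apart from less RNA per cell.

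In brown adipocytes, noradrenaline acts through beta adrenergic receptors and cyclic AMP to release fatty acids and to raise *Ucp1* transcription. UCP1 lets protons cross the inner mitochondrial membrane without making ATP, and the energy is lost as heat. Inguinal fat of the mouse is a white depot that holds scattered beige adipocytes, which switch on the same genes in the cold or under adrenergic drive. Thyroid hormone is a known inducer of *Ucp1*.

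*Ucp1* was the only gene of the 9 that passed the test between the genotypes. Values of single mice are given here and later in the order of mice 1, 2 and 3. Its level was 15.5, 7.39 and 15.3 normalized CPM in the Wt mice, against 3.46, 3.23 and 3.51 in mutant mice. The mean of the mutant mice was 26.8% of the Wt mean. *Prdm16* and *Cox8b* were also lower in every mutant mouse than in every Wt mouse, without passing the test, while *Ppargc1a*, *Cox7a1* and *Ebf2* had means in mutant mice of 106%, 125% and 102% of the Wt mean.

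Stretches of DNA just before the start sites of 4 of these genes are shown, as part of what was searched for motifs. DNA farther from the starts was not searched. *Ucp1*, *Prdm16* and *Cox8b* are the genes whose mutant values all lay below the Wt values, and *Ppargc1a* shares a motif with *Ucp1*. Each is the 250 bases before the start in RefSeq on GRCm38.p6, written 5′ to 3′ on the strand of the gene. Capitals mark matches on either strand to the motifs listed after the sequences.
*Ucp1*, chr8:83290098-83290347, plus strand: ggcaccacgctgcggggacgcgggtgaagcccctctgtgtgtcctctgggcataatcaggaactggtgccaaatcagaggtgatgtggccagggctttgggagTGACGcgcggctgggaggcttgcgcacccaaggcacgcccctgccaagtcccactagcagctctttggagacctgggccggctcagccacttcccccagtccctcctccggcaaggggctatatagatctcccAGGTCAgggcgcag
*Ppargc1a*, chr5:51567726-51567975, minus strand: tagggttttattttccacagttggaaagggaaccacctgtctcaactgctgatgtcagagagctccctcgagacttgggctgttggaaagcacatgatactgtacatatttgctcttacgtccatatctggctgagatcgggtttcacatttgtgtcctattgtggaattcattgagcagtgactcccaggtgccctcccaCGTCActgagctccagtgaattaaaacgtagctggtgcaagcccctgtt
*Prdm16*, chr4:154636874-154637123, minus strand: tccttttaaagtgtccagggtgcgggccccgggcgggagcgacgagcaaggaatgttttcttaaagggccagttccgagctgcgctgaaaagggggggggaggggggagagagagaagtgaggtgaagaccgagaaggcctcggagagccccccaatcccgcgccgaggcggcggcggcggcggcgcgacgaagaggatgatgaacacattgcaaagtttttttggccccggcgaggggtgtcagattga
*Cox8b*, chr7:140900447-140900696, minus strand: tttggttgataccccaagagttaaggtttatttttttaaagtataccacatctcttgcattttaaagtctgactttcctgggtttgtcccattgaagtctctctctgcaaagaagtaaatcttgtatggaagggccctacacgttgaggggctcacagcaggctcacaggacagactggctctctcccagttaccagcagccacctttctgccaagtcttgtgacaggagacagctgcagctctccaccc

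The motifs searched on both strands were the TATA box TATAAA, the EBF core CCCNNGGG, the cyclic AMP response element TGACGTCA and its core TGACG, and the nuclear receptor half-site AGGTCA and its extended form TNAAGGTCA. Half-sites were also searched as pairs in direct repeat with 1 or 4 bases between them. The core lies within the full cyclic AMP response element, and the half-site lies within its extended form and within each repeat. The *Ucp1* stretch held 1 core of the cyclic AMP response element, 147 to 143 bases before the start, and 1 AGGTCA, 14 to 9 bases before it. The *Ppargc1a* stretch held the same core on the other strand, 49 to 45 bases before the start. Neither the *Prdm16* nor the *Cox8b* stretch held any of the motifs, and the stretches of *Cox7a1* and *Otop1* held none either. Of 32851 promoter stretches of the same length, 17.8% held the core TGACG, 14% held AGGTCA, 1.55% held the full TGACGTCA, 1.14% the extended half-site, 11.8% the EBF core and 12.4% the TATA box. The direct repeats were found in 0.0335% with 1 base between and in 0.0152% with 4 bases between. A match describes the letters of the stretch and is not a measured site. *Cidea*, *Elovl3* and *Ebf2* had no entry in the table used.

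Across all genes, 16868 had enough reads to be tested. Values are normalized CPM, reads scaled to library size and then by a further factor for each mouse. The mice had 19607423 to 24228381 reads, so 3 reads correspond to 0.126 to 0.157, a floor that covers counting error only. Genotypes were compared with limma on log2(value + 0.5), a scale on which fold changes of low genes are understated, at a false discovery rate (FDR) of 0.05, and SE is the standard error of a log2 fold change. Of the genes tested, 8.11% passed, with 2.61% lower and 5.50% higher in mutant mice, so that 67.8% of the calls were higher. With libraries scaled by total reads alone, 79.4% of the calls were higher. Marker genes of fat cells were abundant in all mice, with *Adipoq* at a mean of 1261 normalized CPM per kb of exon. The pads differed in what else they held. The 7 B cell and lymph node markers summed to 3.51 in mutant mouse 1 and to between 453 and 991 in the other 5 mice, and the 18 skeletal muscle markers summed to between 15478 and 39272. Results that rest on mutant mouse 1 are therefore also given without it.

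**Figure D1:**
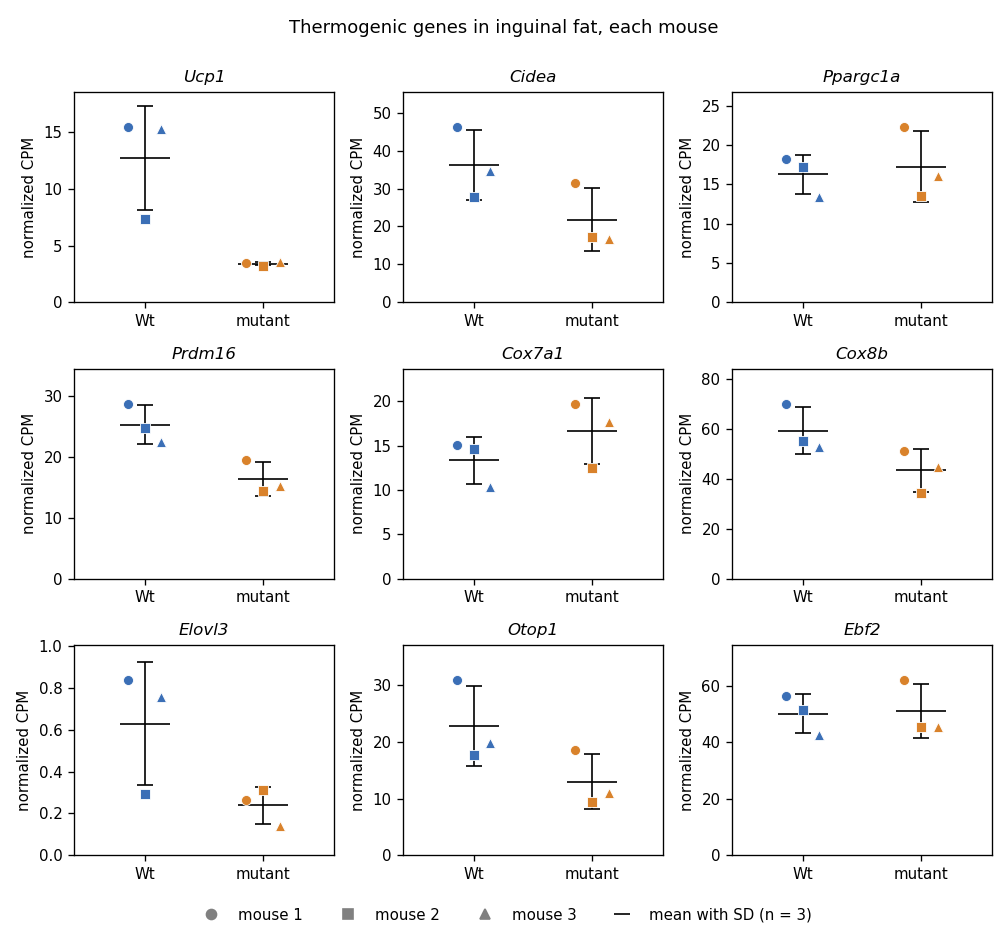
Normalized CPM of each of the 9 genes (vertical axes, starting at 0) in Wt mice (blue) and mutant mice (orange), with the shape giving the mouse number and the line and bars giving mean and SD (n = 3). *Ucp1*, *Prdm16* and *Cox8b* have all 3 mutant mice below all 3 Wt mice, and *Ppargc1a*, *Cox7a1* and *Ebf2* have overlapping genotypes.

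*Ucp1* (ENSMUSG00000031710, chromosome 8, 83290352 to 83298452 on the plus strand of GRCm38) encodes the uncoupling protein itself. Wt mice 1, 2 and 3 had 369, 152 and 363 reads on it, and mutant mice had 66, 72 and 75. The Wt mean was 12.7 ± 4.60 (SD, n = 3) and the mutant mean 3.40 ± 0.148 (SD, n = 3), which is 3.74-fold lower. Every mutant mouse lay below every Wt mouse, and Wt mouse 2 was the Wt mouse nearest to them. *Ucp1* fell by 1.69 on the log2 scale (SE 0.29, adjusted p = 0.0187 by limma), more than the spread between mice. The quasi-likelihood test of edgeR, run on reads, also called it (adjusted p = 0.0176). An exact two-sided permutation test gave p = 0.1, the smallest value that 3 mice against 3 can give. The SD of the mutant mice was 4.36% of their mean, below the counting error of 11.9% that 71 reads carry, whereas that of the Wt mice was 36.2%. The call rested on most of the mice. It was kept without Wt mouse 2 (adjusted p = 0.00964) and without mutant mouse 1 (0.0316), and it was lost without Wt mouse 1 (0.0570), Wt mouse 3 (0.0725), mutant mouse 2 (0.0811) or mutant mouse 3 (0.0597), at log2 fold changes of -1.52 to -1.71.

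Against the 2.61% of all tested genes that were lower, 1 of the 8 tested thermogenic genes was lower, which is 12.5% of a very short list, and 0 were higher. edgeR also called 1 of the 8. At an unadjusted p under 0.05, 5 of the 8 were lower, compared with 12.0% of all tested genes, and 0 were higher. Their median log2 fold change was -0.54, with a range of -1.69 to 0.30, and the median of all tested genes was -0.05. Without mutant mouse 1, the mouse with almost no lymph node transcripts, 9 were tested and 3 were lower, *Ucp1*, *Cidea* and *Prdm16*, compared with 1.55% of all genes then tested.

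The other 2 genes whose genotypes did not overlap were a regulator and an enzyme subunit. In all, 3 of the 8 were lower in each mutant mouse than in any Wt mouse, compared with 15.7% of all tested genes, and 0 were higher in each, compared with 14.9%.

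*Prdm16* (ENSMUSG00000039410, chromosome 4, 154316125 to 154636873, minus strand) encodes a zinc finger coregulator that sets the brown and beige programme and represses white fat and muscle genes. It stood at 28.7, 24.8 and 22.4 normalized CPM in the Wt mice and at 19.5, 14.4 and 15.2 in the mutant mice. The highest mutant mouse lay just under the lowest Wt mouse. The Wt mean was 25.3 ± 3.19 (SD, n = 3) and the mutant mean 16.4 ± 2.75 (SD, n = 3). A difference of -0.62 on the log2 scale (SE 0.15) missed the threshold (adjusted p = 0.0608). Without mutant mouse 1 it passed, at -0.74 (adjusted p = 0.0276). It also passed with scaling by total reads alone (adjusted p = 0.0241) and with the Wald test of DESeq2 (adjusted p = 0.00958). It did not pass with edgeR (adjusted p = 0.0750), with limma-voom (0.0706) or with scaling to adipocyte markers (0.217). Nor did it pass on leaving out any mouse but mutant mouse 1 (adjusted p 0.108 to 0.188 by limma). In all, *Prdm16* passed in 5 of the 18 alternative fits.

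*Cox8b* (ENSMUSG00000025488, chromosome 7, 140898945 to 140900446, minus strand) encodes a small subunit of cytochrome c oxidase, the last complex of the respiratory chain, in a form made in brown fat, heart and skeletal muscle. Its level in Wt mice 1, 2 and 3 was 70.2, 55.3 and 52.7 normalized CPM, and in mutant mice 51.4, 34.2 and 44.7. Mutant mouse 1 lay close under the lowest Wt mouse, so the genotypes were apart by little. The difference of -0.46 on the log2 scale (SE 0.18, adjusted p = 0.186) did not pass, nor did that of -0.59 without mutant mouse 1 (adjusted p = 0.109).

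*Cidea* and *Otop1* shared a pattern in which mutant mouse 1 reached into the Wt range. *Cidea* (ENSMUSG00000024526, chromosome 18, plus strand) encodes a lipid droplet protein of brown and beige fat cells that acts on droplet size. It was at 46.2, 27.9 and 34.5 normalized CPM in the Wt mice and at 31.4, 17.3 and 16.6 in mutant mice. Mutant mouse 1 lay above Wt mouse 2, and the other 2 mutant mice lay below every Wt mouse. On the log2 scale the genotypes differed by -0.75 (SE 0.29, adjusted p = 0.180), and without mutant mouse 1 by -1.04, which passed (adjusted p = 0.0354). On leaving out any other mouse the log2 fold change was -0.92 to -0.56 and did not pass (adjusted p 0.222 to 0.367). *Cidea* passed in 3 of the 18 alternative fits.

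*Otop1* (ENSMUSG00000051596, chromosome 5, 38275972 to 38304217, plus strand) encodes otopetrin 1, a proton channel whose transcript is enriched in brown fat. Wt mice 1, 2 and 3 had 30.9, 17.7 and 19.9 normalized CPM, and mutant mice had 18.5, 9.38 and 10.9. Again only mutant mouse 1 exceeded the lowest Wt mouse. The log2 fold change of -0.81 (SE 0.30) did not pass (adjusted p = 0.168), and without mutant mouse 1 it was -1.09 (adjusted p = 0.0510).

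*Elovl3* (ENSMUSG00000038754, chromosome 19, 46131897 to 46135694, plus strand) encodes an elongase of very long fatty acids that is strongly induced in brown fat in the cold. It was close to the floor, with 20, 6 and 18 reads for Wt mice against 5, 7 and 3 for mutant mice, or 0.838, 0.292 and 0.757 against 0.262, 0.314 and 0.140 normalized CPM. As for *Ucp1*, Wt mouse 2 was the lowest of the Wt mice, and here it fell between the mutant mice. *Elovl3* did not pass the filter on low values and was not tested with the rest. In a fit with no filter its log2 fold change was -0.58 (SE 0.23, adjusted p = 0.249).

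The remaining 3 genes had slightly higher means in mutant mice, and none passed the test. *Ppargc1a* (ENSMUSG00000029167, chromosome 5, 51454250 to 51567726, minus strand) encodes PGC-1 alpha, the cold-inducible coactivator of mitochondrial genes and of *Ucp1*. It was at 18.2, 17.2 and 13.4 normalized CPM in the Wt mice and at 22.3, 13.5 and 16.0 in mutant mice. The highest value was that of mutant mouse 1 and the lowest that of Wt mouse 3, so the genotypes interleaved. Its log2 fold change of 0.07 (SE 0.21, adjusted p = 0.863) turned to -0.13 without mutant mouse 1 and to -0.06 without Wt mouse 3.

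*Ebf2* (ENSMUSG00000022053, chromosome 14, 67233292 to 67430918, plus strand) encodes a transcription factor that marks brown and beige precursor cells and recruits PPAR gamma to brown fat genes. Its level was 56.5, 51.4 and 42.7 normalized CPM in the Wt mice and 62.1, 45.6 and 45.6 in mutant mice. All 6 mice fell in the same order for *Ebf2* as for *Ppargc1a*, from mutant mouse 1 down to Wt mouse 3. For *Ebf2*, however, mutant mice 2 and 3 were nearly tied, at 45.59 and 45.62, so their order carries no weight. The genotypes differed by 0.02 on the log2 scale (SE 0.16, adjusted p = 0.947), and *Ebf2* also turned, to -0.13 and -0.09 without the same mice.

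*Cox7a1* (ENSMUSG00000074218, chromosome 7, 30184144 to 30186078, plus strand) encodes another subunit of cytochrome c oxidase, in the form of heart, skeletal muscle and brown fat. Wt mice 1, 2 and 3 had 15.04, 14.6 and 10.3 normalized CPM and mutant mice had 19.7, 12.5 and 17.6. A log2 fold change of 0.30 (SE 0.22) did not pass (adjusted p = 0.428), and without mutant mouse 1 it was 0.17 (adjusted p = 0.752). The order of the 6 mice for *Cox7a1*, from mutant mouse 1 and mutant mouse 3 down to mutant mouse 2 and Wt mouse 3, was the order of their summed skeletal muscle markers at every place. Those 18 markers summed to 33023, 29995 and 15478 in the Wt mice and to 39272, 24962 and 38936 in mutant mice, and none was at 0 in any mouse. Of the 18, 1 passed the test, *Myh1*, a fast myosin heavy chain, which rose by a log2 fold change of 4.31 (adjusted p = 0.0208, lost without Wt mouse 3, mutant mouse 2 or mutant mouse 3 at 0.0611 to 0.0783). The list as a whole leaned upwards. Its median log2 fold change was 0.71, 17 of the 18 values were above 0, 8 were higher at an unadjusted p under 0.05 (12.2% of all tested genes) and 0 were lower, and 7 were higher in each mutant mouse than in any Wt mouse (14.9% of all tested genes). Among those 7, *Myh2* had a log2 fold change of 2.58 (adjusted p = 0.0750) and *Myh7*, a slow myosin heavy chain, one of 3.93 (adjusted p = 0.130). The part of muscle transcripts in the *Cox7a1* values was not tested. *Cox8b*, also a muscle subunit, did not follow that order over all 6 mice, with Wt mouse 3 above all mutant mice. Within each genotype, however, the mice stood in the same order for *Cox8b* as for their summed muscle markers. The part of muscle transcripts in the *Cox8b* values was not tested either.

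Levels of different genes were compared per kb of exon. *Cox8b* was highest, at a mean of 143 normalized CPM per kb over the 6 mice and a range of 95.0 to 195. *Cox7a1*, with a range of 19.3 to 36.8, and *Cidea*, with a range of 14.9 to 41.4, followed and did not differ beyond their spread, though each lay wholly below *Cox8b*. Below them came *Ebf2* at 7.31 (6.16 to 8.96), *Otop1* at 5.20 (2.72 to 8.98) and *Ucp1* at 4.92 (1.97 to 9.45), whose ranges overlapped. *Ppargc1a* at 2.54 (2.04 to 3.38) and *Prdm16* at 2.24 (1.55 to 3.08) overlapped with each other and with *Ucp1*. *Elovl3* was lowest, at 0.220 (0.0711 to 0.424), with its whole range below that of every other gene. By genotype, *Ucp1* held the fourth place among Wt mice, at 7.77 ± 2.81 (SD, n = 3) per kb, and the seventh among mutant mice, at 2.08 ± 0.0906 (SD, n = 3).

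**Figure D2:**
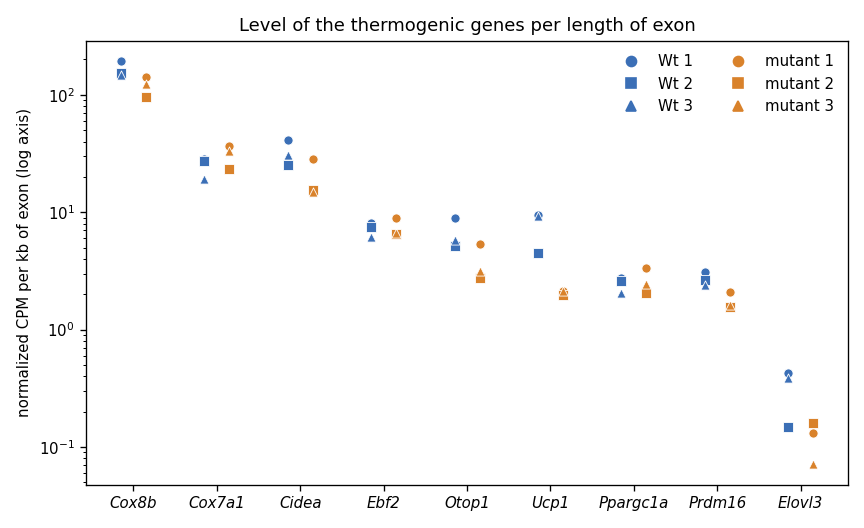
Normalized CPM per kb of exon (log axis) of the 9 genes, ordered by their mean over the 6 mice, in Wt mice (blue) and mutant mice (orange), with the shape giving the mouse number. *Cox8b* stands above the rest with a mean of 143, *Elovl3* lies below the rest with a mean of 0.220, and the mean of mutant mice lies lowest relative to that of Wt mice for *Ucp1*.

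The mice of a genotype also differed from each other in a common way. Wt mouse 1 had the highest Wt level of all 9 genes, and mutant mouse 1 had the highest mutant level of 7 of them, all but *Ucp1* and *Elovl3*. For comparison, mouse 1 was highest in both genotypes for 29.7% of all tested genes. The summed level of the 10 adipocyte markers was also highest in mouse 1 of each genotype, at 39681, 30793 and 27003 in the Wt mice and at 40808, 31510 and 26469 in mutant mice, and none was at 0 in any mouse. These sums overlapped between genotypes, and of the 10 markers 0 passed the test by limma or by edgeR (3 at an unadjusted p under 0.05). Whether the content of fat cells has a part in the spread of the thermogenic genes was not tested. With values scaled to the adipocyte markers, *Ucp1* was lower by a log2 fold change of -1.65 (adjusted p = 0.0350).

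**Figure D3:**
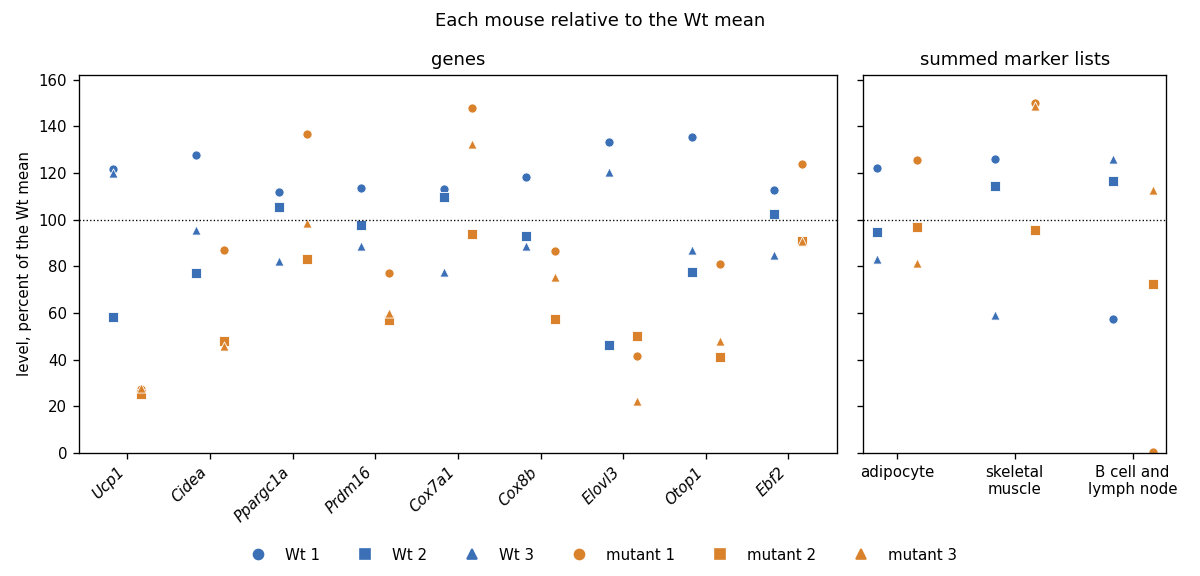
Level of each mouse as percent of the Wt mean (vertical axis, dotted line at 100) for the 9 genes and for 3 summed marker lists, with Wt mice in blue, mutant mice in orange and the shape giving the mouse number. The 3 mutant mice lie at 25.4% to 27.6% of the Wt mean for *Ucp1*, while their adipocyte marker sums lie at 81.5% to 126% and the B cell and lymph node sum of mutant mouse 1 lies at 0.446%.

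Across the 6 mice, the genes whose log2 levels followed *Ucp1* most closely were, among those tested, *Ring1*, *Tpgs1*, *Dnah10*, *Zfyve27*, *Zxdc*, *Tnfsf13*, *Ptges3-ps*, *Grwd1*, *Tmem186* and *AI480526*, with Pearson correlations of 0.983 to 0.996. For all 10, the genotypes did not overlap and the mutant mice were the lower, as they were for 15.7% of all tested genes. The choice by likeness to *Ucp1*, itself without overlap, largely sets this. Their log2 fold changes were -0.51 to -0.23. *Tpgs1* passed the test (adjusted p = 0.0463 by limma) and the others did not. *Dnah10* was low, at 0.314 to 0.796 normalized CPM. The other thermogenic genes followed it less closely, with *Prdm16* at 0.84, *Otop1* and *Cidea* at 0.80, *Cox8b* at 0.75, *Ebf2* at -0.08, *Ppargc1a* at -0.17 and *Cox7a1* at -0.54. These values describe 6 libraries that share a genotype difference and were not tested.

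Each thermogenic gene has relatives with broader roles. Of 25 such paralogs and isoform partners, 21 were tested, and 1 (4.76%), *Ppargc1b*, was lower and 0 were higher, beside 2.61% and 5.50% of all tested genes. At an unadjusted p under 0.05, 4 were lower and 2 were higher, beside 12.0% and 12.2% of all tested genes. Their median log2 fold change was -0.14.

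Of the uncoupling proteins, *Ucp2*, which is expressed in many cell types including immune cells, was at 187, 245 and 320 normalized CPM in the Wt mice and at 69.5, 147 and 152 in mutant mice. Every mutant mouse was below every Wt mouse, and mutant mouse 1, with almost no lymph node transcripts, was the lowest. The difference in *Ucp2*, -1.08 on the log2 scale (SE 0.34), did not pass (adjusted p = 0.116). Without mutant mouse 1 it was -0.71 and did not pass either (adjusted p = 0.1205). *Ucp3*, found mainly in skeletal muscle and brown fat, was at 61.1, 49.5 and 43.3 in Wt mice and at 41.3, 33.3 and 31.6 in mutant mice, again with no overlap (log2 fold change -0.52, SE 0.16, adjusted p = 0.106). The level of *Ucp1* per kb was 12.9% to 35.2% of that of *Ucp2* in Wt mice and 9.42% to 21.3% in mutant mice, which overlapped. It was 28.6% to 67.6% of that of *Ucp3* in Wt mice and 16.0% to 21.3% in mutant mice, with no overlap between the genotypes.

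*Ppargc1b*, encoding the coactivator PGC-1 beta, was the paralog that moved. It was at 12.7, 11.3 and 12.4 normalized CPM in the Wt mice and at 6.34, 8.03 and 7.16 in mutant mice. Its log2 fold change was -0.72 (SE 0.13, adjusted p = 0.0223), which was lost on leaving out any mouse but mutant mouse 1 (adjusted p 0.0541 to 0.0909) and with scaling to the adipocyte markers (0.335), where the log2 fold change was still -0.68. *Ppargc1a* per kb was 65.7% to 92.1% of *Ppargc1b* in Wt mice and 102% to 213% in mutant mice, with no overlap.

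The other partners did not pass the test. Among the subunits of cytochrome c oxidase, *Cox7a2*, the form of most tissues that pairs with *Cox7a1*, had a log2 fold change of 0.27 (adjusted p = 0.376), and *Cox8a*, the counterpart of *Cox8b*, one of -0.31 (adjusted p = 0.301). *Cox7a1* per kb was 20.4% to 33.1% of *Cox7a2* in Wt mice and 21.7% to 32.9% in mutant mice, and *Cox8b* was 48.0% to 56.0% of *Cox8a* in Wt mice and 41.0% to 55.9% in mutant mice, so both pairs overlapped. *Cidea* was at least 3.53% of *Cidec* in Wt mice and 2.39% to 3.89% in mutant mice, which overlapped too. *Cox6a2*, a muscle form and a marker in the muscle list, was at 44.5, 66.1 and 30.9 normalized CPM in the Wt mice and at 92.5, 62.4 and 99.0 in mutant mice (log2 fold change 0.88, adjusted p = 0.139). *Cidec*, the *Cidea* relative of white fat cells, gave -0.38 (adjusted p = 0.364), and *Elovl6*, an elongase of the lipogenic pathway, gave 0.88 (adjusted p = 0.0647) with every mutant mouse above every Wt mouse. Without mutant mouse 1, *Elovl6* gave 0.66 (adjusted p = 0.0682).

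**Figure D4:**
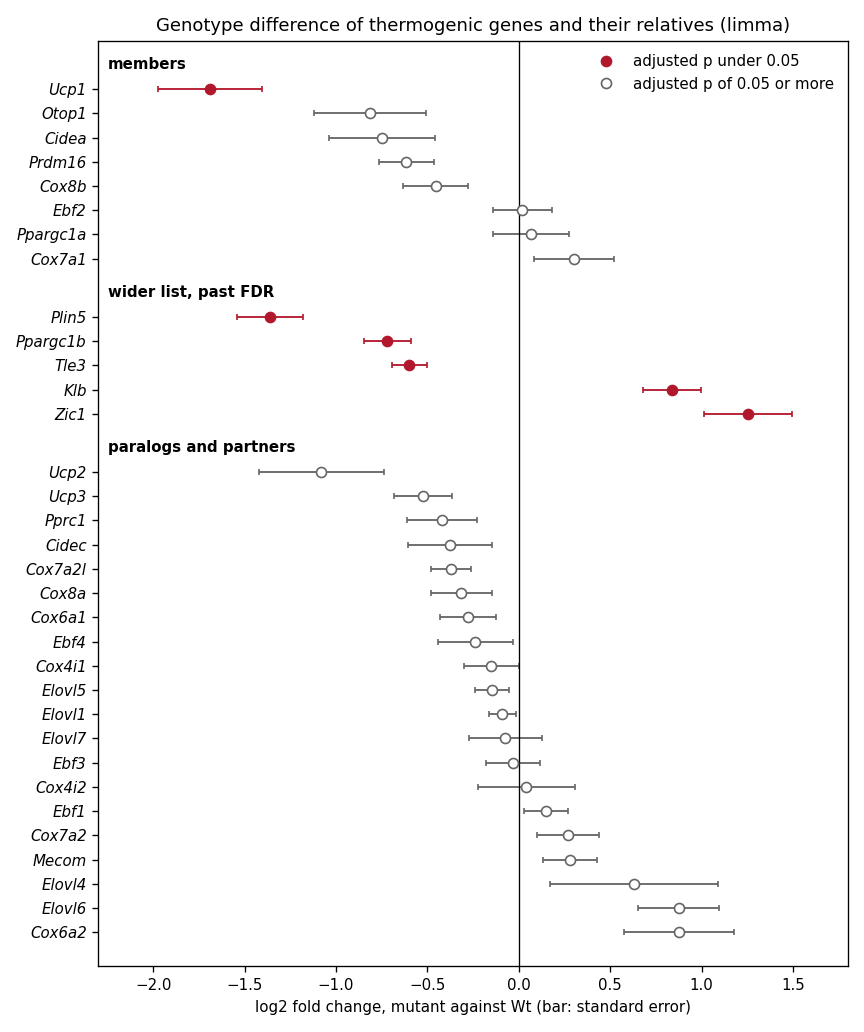
Log2 fold change of mutant against Wt mice (horizontal axis, limma, bars are the SE) for the 8 tested thermogenic genes, the 5 genes of the wider list that passed the FDR, and the 20 other tested paralogs and partners. Filled red points passed the FDR of 0.05, and among the thermogenic genes only *Ucp1*, at -1.69, is one of them.

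A wider list of 66 genes of the thermogenic pathway held 63 that were tested. Of these, 3 were lower (4.76%) and 2 were higher (3.17%), beside the 2.61% and 5.50% of all tested genes. Their median log2 fold change was -0.11. At an unadjusted p under 0.05, 13 were lower and 3 were higher, beside 12.0% and 12.2% of all tested genes. Among the 63, 13 (20.6%) were lower in each mutant mouse and 4 (6.35%) were higher in each, beside 15.7% and 14.9% of all tested genes.

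Among 18 transcriptional regulators, 2 (11.1%, beside 2.61% of all tested genes) were lower and 0 were higher. At an unadjusted p under 0.05, 8 were lower and 0 were higher, beside 12.0% and 12.2% of all tested genes. In each mutant mouse, 7 were lower than in any Wt mouse and 1 was higher, beside 15.7% and 14.9% of all tested genes. The 2 that passed the FDR were *Ppargc1b* and *Tle3*, a corepressor known to oppose *Prdm16* in fat cells. *Tle3* was at 146, 158 and 161 normalized CPM in the Wt mice and at 91.3, 106 and 110 in mutant mice, with a clear gap between the genotypes. Its log2 fold change of -0.60 (SE 0.10, adjusted p = 0.0151) was lost without Wt mouse 2, Wt mouse 3 or mutant mouse 2 (adjusted p 0.0633 to 0.0777), with scaling by total reads alone (0.0609) and with scaling to the adipocyte markers (0.501). Under these 2 scalings the log2 fold change was still -0.59 and -0.56. *Pparg*, the master regulator of fat cell formation, gave 0.13 (adjusted p = 0.702). *Ppara*, a regulator of fatty acid oxidation, gave -0.51 (adjusted p = 0.198). *Esrra*, the estrogen-related receptor that works with the PGC-1 coactivators, gave -0.27 (adjusted p = 0.178), and *Cebpb*, a partner of *Prdm16*, gave -0.41 (adjusted p = 0.10). The exons of *Cebpb* share 312 bases with those of *Tmem189* on the opposite strand. Whether reads were counted by strand is not given in the sources used here.

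Of 16 tested genes of the adrenergic, thyroid and hormone inputs, 1 was higher (6.25%) and 0 were lower, beside 5.50% and 2.61% of all tested genes. At an unadjusted p under 0.05, 2 were higher and 1 was lower, beside 12.2% and 12.0% of all tested genes. The gene that passed was *Klb*, which encodes the co-receptor of the hormone FGF21. Its level was 55.6, 40.9 and 42.8 normalized CPM in the Wt mice and 97.2, 79.7 and 73.0 in mutant mice, with all mutant mice above all Wt mice. *Klb* rose by 0.84 on the log2 scale (SE 0.16, adjusted p = 0.0260), and this call was lost without Wt mouse 2, Wt mouse 3 or mutant mouse 2 (adjusted p 0.0917 to 0.105). *Fgf21* itself was too low to be tested.

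The receptors and enzymes upstream of *Ucp1* did not pass. *Adrb3*, the beta adrenergic receptor of fat cells, was at 562, 380 and 404 normalized CPM in the Wt mice and at 438, 262 and 291 in mutant mice (log2 fold change -0.46, adjusted p = 0.299). *Dio2*, which makes active thyroid hormone inside brown fat cells, was low, at 1.02 to 1.97 in Wt mice and at most 2.38 in mutant mice (log2 fold change 0.25, adjusted p = 0.533). *Thra*, the mutated gene, gave 0.19 (adjusted p = 0.404), a level that does not check a point mutation and whose exons share 263 bases with those of *Nr1d1*, which is read from the opposite strand. *Nrg4*, a secreted factor enriched in brown fat, was at 84.9, 60.2 and 66.7 in Wt mice and at 50.8, 42.0 and 35.5 in mutant mice, with no overlap (log2 fold change -0.72, adjusted p = 0.0588). Its exons share 368 bases with those of *Fbxo22* on the opposite strand, and the use of strand in counting is not given in the sources used here.

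Of 17 tested fuel and mitochondrial effectors, 1 was lower (5.88%) and 0 were higher, beside 2.61% and 5.50% of all tested genes. At an unadjusted p under 0.05, 3 were lower and 0 were higher, beside 12.0% and 12.2% of all tested genes. *Plin5* (ENSMUSG00000011305, chromosome 17, 56111601 to 56117596, minus strand) encodes the perilipin that ties lipid droplets to mitochondria in oxidative tissues. It was at 16.4, 11.4 and 12.2 normalized CPM in the Wt mice and at 5.40, 4.08 and 5.10 in mutant mice. The lowest Wt mouse was above the highest mutant mouse by more than the spread within either genotype. *Plin5* fell by 1.36 on the log2 scale (SE 0.18, adjusted p = 0.00794), and it passed in each of the 18 alternative fits, *Ucp1* in 14 of them. *Slc27a1*, a fatty acid transporter, was at 590, 439 and 415 in Wt mice and at 350, 296 and 239 in mutant mice (log2 fold change -0.70, adjusted p = 0.0816). *Cpt1b*, the muscle and brown fat form of the enzyme that admits fatty acids to mitochondria, was low in both genotypes, at 0.926 to 1.26 in Wt mice and 1.21 to 1.73 in mutant mice.

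Among the 12 genes of the panel used to tell brown from beige cells, 1 was higher (8.33%) and 0 were lower. The shares of all tested genes were 5.50% and 2.61%. At an unadjusted p under 0.05, 1 was higher and 1 was lower, beside 12.2% and 12.0% of all tested genes. Of the 12 log2 fold changes, 9 were below 0 and 3 above, with a median of -0.29, beside -0.05 for all tested genes. The lowest, -1.23, was that of *Epsti1* (adjusted p = 0.311 by limma). It was at 40.2, 81.3 and 111 normalized CPM in the Wt mice and at 10.8, 52.2 and 47.7 in mutant mice, with overlap. The gene that passed was *Zic1*, a marker of classical brown fat, at 0.251, 0.584 and 0.126 normalized CPM in the Wt mice and at 1.62, 1.17 and 1.45 in mutant mice. These are 6, 12 and 3 reads in Wt mice and 31, 26 and 31 in mutant mice. Its log2 fold change of 1.25 (SE 0.24, adjusted p = 0.0291) did not pass with edgeR (adjusted p = 0.0516) and was lost on leaving out any mouse but Wt mouse 2 (adjusted p 0.0610 to 0.0941). *Lhx8*, also used for brown fat, was at 5.97 to 9.82 in Wt mice and 4.63 to 6.19 in mutant mice. Of the beige markers, *Tbx1* was at 6.28, 5.59 and 7.24 in Wt mice and at 3.09, 4.13 and 4.82 in mutant mice, with no overlap (log2 fold change -0.62, adjusted p = 0.109), and *Tmem26* overlapped, at 3.39 to 7.11 and 3.51 to 5.34.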

How the data were processed

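RNA-seq of inguinal fat was analysed from 6 mice, with genotype and mouse number taken from the labels. What the authors deposited is a normalized signal for each gene in each mouse, namely CPM with a further scaling factor of 0.962 to 1.109. The submitters' processing notes name mm10, Bowtie2 2.1.0, RSEM 1.2.15 and edgeR without order. All values above 0 (100%) came out as whole reads within 0.02 reads, so reads were recovered. Mice of a genotype differed far beyond sampling noise, with chi-square over degrees of freedom of 19.6 to 67.3. The sources used here give no litter or pairing for these mice, so the main fit had no block. Its p-values set the genotype difference against the spread between these animals, which includes whatever same-numbered mice may share.

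Genes that passed filterByExpr (edgeR 4.0.16, run on those reads) were tested with limma 3.58.1 in R 4.3.3, with trend, on log2(value + 0.5), two-sided, with Benjamini-Hochberg adjustment over all of them. The count tests, edgeR and DESeq2 1.42.0, were alternatives. Of 55573 identifiers, 55480 were found in GENCODE M21 on GRCm38 (mm10), used for coordinates and exon length. Promoters are from RefSeq on GRCm38.p6. The main limma fit was tried on simulated counts, and the other steps were not. The members and lists were chosen with earlier results of these data known. Genes named are the 9 members, their paralogs and partners, the genes of each list that passed and up to 4 of known role that did not, *Thra*, and the 10 genes most like *Ucp1*. Alternatives were other scalings, tests, filters, pseudocounts of 0.1 or 1, an FDR threshold of 0.1, leaving out each mouse, and a replicate block. Scaling to adipocyte markers and leaving out both mice numbered 1 were chosen after seeing the data. Python 3.11.15, pandas 2.3.3, SciPy 1.17.1 and Matplotlib 3.10.9 were used.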

Additional observations from a re-analysis of the deposited data

How the results depend on the processing

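Of the 9 thermogenic genes, 8 were tested in each fit on all 6 mice, except that with no filter, where 9 were. Of these, 1 passed with DESeq2's size factors, edgeR, limma-voom, no filter, at least 10 reads in every mouse, either pseudocount and scaling to adipocyte markers, always *Ucp1*. With scaling by total reads alone, with DESeq2's Wald test and at an FDR of 0.1, 2 passed, beside 1284, 2118 and 2263 of all 16868 genes. Without both mice numbered 1, 4 of 8 passed, beside 2326 of all 17057 genes then tested. On leaving out each mouse in turn, 0 to 3 of the 8 or 9 tested passed, beside 545 of 17364 to 1043 of 17294 genes. For all genes, the 1368 calls became 2118 with DESeq2's Wald test, 598 with at least 10 reads in every mouse, 2263 at an FDR of 0.1, 777 with scaling to adipocyte markers, 2326 without both mice numbered 1, and 545 to 1043 on leaving out each mouse. For the wider list, the 5 calls became 8 with DESeq2's Wald test, 9 at an FDR of 0.1, 10 without both mice numbered 1, and 1 to 6 on leaving out each mouse. With fewer mice some counts fell and others rose, and the causes of these changes were not tested. The small differences of *Ppargc1a* and *Ebf2* changed sign without Wt mouse 3, without mutant mouse 1 and without both mice numbered 1 (-0.043 and -0.038), with ranges on leaving out each mouse of -0.13 to 0.22 and -0.13 to 0.11, and that of *Pparg* without mutant mouse 1 (range -0.039 to 0.29). Of the single-gene values under the alternatives, 497 kept direction and call, 29 lost the call and 42 gained it.

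The labels number the mice 1 to 3 in each genotype, but same-numbered mice are different animals, and their deviations from the genotype means correlated at 0.686, 0.0573 and 0.560. Wt mice 1 and 3 correlated best with their own number and Wt mouse 2 did not. With a replicate block for the number, 4063 genes were called, 5 of the thermogenic genes (*Ucp1*, *Cidea*, *Prdm16*, *Cox8b* and *Otop1*, all lower) and 16 of the wider list. *Elovl3* and *Zic1* rest on few reads, 3 to 20 and 3 to 31 in a mouse, and the part of depth in their results was not tested.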

Other observations

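Markers of other cell types in the pad were read beside the thermogenic genes. Of 8 mesothelial markers, 7 were higher in mutant mice, beside 5.50% of all tested genes, with log2 fold changes of up to 4.53. These 8 summed to 8.32 to 34.0 normalized CPM in Wt mice and to 42.8 to 85.7 in mutant mice. The 34.0 was that of Wt mouse 1, where *Krt19*, the marker that did not pass, alone stood at 28.5. Of the 6 macrophage, 6 endothelial, 6 epithelial and 6 Schwann cell and myelin markers, 0 passed the test by limma or edgeR (2, 3, 1 and 1 at an unadjusted p under 0.05). The epithelial markers summed to 75.8 in Wt mouse 1 and to between 3.79 and 23.1 in the other mice. Of the 7 B cell and lymph node markers, 0 passed by either test (0 at an unadjusted p under 0.05). The part of these cells in the thermogenic genes was not tested.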
